A study of Homo sapiens with 3 samples.

Results

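Exon skipping was described for 10 genes of innate immune signalling, out of 11271 genes in the deposited tables. They are TLR4 and its adaptor TIRAP, the NF-kappaB regulators IKBKB, TNIP1 and SHARPIN, the interferon regulatory factor IRF7, the interferon-linked nuclear proteins IFI16 and SP100, and IFI27L1 and BTN3A2 of the interferon-linked IFI27 and butyrophilin families. The members were chosen by gene symbol with earlier results of the same tables in view, so their differences and calls are given as a description, without a test. The cells were BJ fibroblasts, an established human foreskin line, taken 8 days after viral expression of OCT4, SOX2, KLF4 and MYC (OSKM) was induced, so every library carries the 4 reprogramming factors. One library had non-targeting siRNA, one had siRNA against SMAD3 and one had siRNA against SFRS11 (now SRSF11, a splicing factor). There was 1 library per group and no replicate, and all came from bulk RNA of 1 cell line.

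The deposit holds 2 tables of skipped-exon events, which set the libraries coded RS2 and RS3 each beside 1 and the same other library, called the comparator here. No label says which siRNA any of these codes had, so the codes are kept. An event is 1 row: an exon that is either kept or skipped between 2 neighbouring exons, with 1 listed difference. The quantity compared, the inclusion level, is the fraction of transcripts across that stretch in which the exon is kept. A positive difference was read as more inclusion than in the comparator. Several rows of 1 exon are taken to differ in the neighbouring exons, which are not listed, so rows cannot be paired between the tables. Events are called here where the FDR listed by the authors is below 0.05 and the difference is 0.1 or more in size. With 1 library on either side, the listed p-values and FDR speak of those libraries and not of the siRNAs, and the depth behind each value is unknown.

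Toll-like receptors sit on the cell surface or in endosomes and recognise microbial products. TLR4 senses bacterial lipopolysaccharide and recruits MyD88 through TIRAP; the signal reaches the IkappaB kinase complex, which frees NF-kappaB to enter the nucleus. Interferon regulatory factors such as IRF7 switch on type I interferon genes, and interferons in turn induce a large set of antiviral genes. Fibroblasts express much of this machinery, and innate immune signalling is known to affect how readily cells are reprogrammed.

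All 10 members had at least 1 called event in RS3 and 0 had one in RS2. Over all genes, 3.05% of 10723 had a called event in RS3 and 0.238% of 10526 in RS2. Of the 60 member events in RS3, 16 were called (26.7%), 11 with lower and 5 with higher inclusion. Among all 42518 RS3 events, 0.967% were called, 0.736% with lower and 0.23% with higher inclusion. The members were picked with these calls known, so nothing is read from that gap. With an FDR under 0.01, 10 member events were called (16.7%), against 0.614% of all RS3 events, and TLR4, TIRAP and IKBKB had none. Over exons listed in a single row, 9 of 35 member events were called (25.7%), against 0.779% of all 29253. The choice of the members raises these member shares as well. In RS2, 0 of 58 member events were called, against 0.0712% of all 40702 events. At an unadjusted deposited p under 0.05 there were 4 member events in RS2, where 4.52% of all events passed, and 19 in RS3, where 7.61% passed.

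The median over all member events was near 0 in both tables. It was -0.007 in RS2 and -0.01 in RS3, beside 0 and -0.001 over all genes, in the authors' deposited table. The quartiles of the RS3 member events ran from -0.096 to 0.02 in the authors' deposited table, against -0.027 to 0.014 for all genes. Opposite signs cancel in these values. Without the sign, the median RS3 difference was 0.0505 for the members against 0.02 for all genes. A difference of at least 0.1 in size was listed for 38.3% of the RS3 member events, against 21.2% of all RS3 events. The members were chosen for their calls, so nothing is read from these gaps. The RS3 calls fell on 15 of the 47 member exons listed there, beside 396 of 34977 exons over all genes. The same choice of members bears on these counts.

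**Figure D1:**
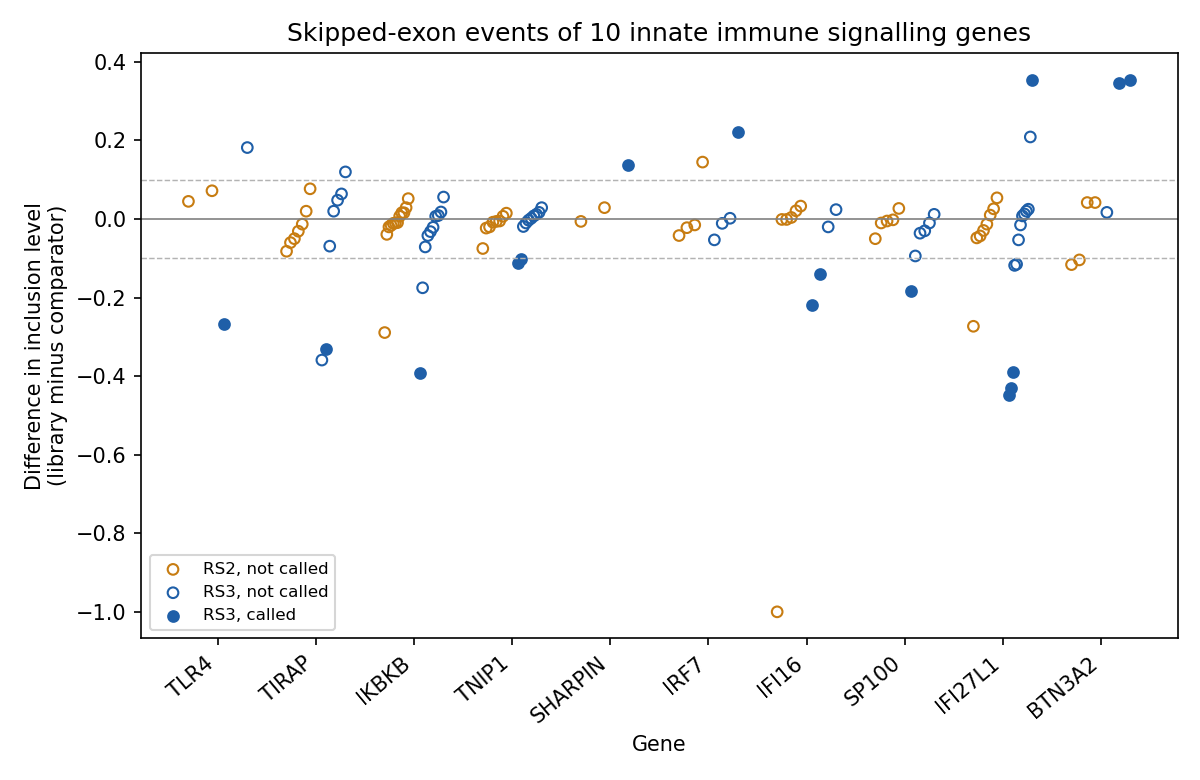
Difference in inclusion level (vertical axis, library minus comparator, on a scale from -1 to 1) of every listed event of the 10 genes; each point is 1 row of the authors' deposited table, orange for RS2 and blue for RS3, filled where called, with dashed lines at a difference of 0.1 in either direction. The filled points are the 16 called RS3 events, 11 below and 5 above 0, and the open orange point at -1 is an IFI16 row that was not called.

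The sequences of a few called exons are shown first, because they carry the clearest structural facts: a duplicated exon, 2 exons that keep the reading frame and 2 that hold a start codon. They are from the GENCODE release 29 transcripts (GRCh38), read 5′ to 3′ on the coding strand. The exons were found there by gene, length and spacing from the gene's other exons, which held for 52 of the 53 member exons; positions below follow the deposited tables, in hg19.

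IFI16 is shown with its 3 exons of 168 bases; capitals mark positions at which all 3 have the same base.
IFI16 exon chr1:158986323-158986490 (+): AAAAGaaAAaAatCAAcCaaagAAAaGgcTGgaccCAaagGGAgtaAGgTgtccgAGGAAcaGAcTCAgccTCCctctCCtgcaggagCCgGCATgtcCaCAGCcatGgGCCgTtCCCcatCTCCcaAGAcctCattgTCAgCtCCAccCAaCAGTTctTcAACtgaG
IFI16 exon chr1:159015087-159015254 (+): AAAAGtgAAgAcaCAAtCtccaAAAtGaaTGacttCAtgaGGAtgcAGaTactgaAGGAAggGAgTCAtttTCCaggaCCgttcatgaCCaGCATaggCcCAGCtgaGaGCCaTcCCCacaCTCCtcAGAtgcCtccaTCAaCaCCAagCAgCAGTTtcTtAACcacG
IFI16 exon chr1:159019222-159019389 (+): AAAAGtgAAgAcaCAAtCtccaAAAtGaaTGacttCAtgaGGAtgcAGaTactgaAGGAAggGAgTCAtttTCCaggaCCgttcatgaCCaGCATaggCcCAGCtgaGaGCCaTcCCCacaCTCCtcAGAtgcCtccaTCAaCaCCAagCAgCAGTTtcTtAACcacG
The second and the third of these exons are the same in all 168 bases, and each shares 87 of 168 (51.8%) with the first.

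SP100 and IFI27L1 are shown with the called coding exon whose length is a multiple of 3. Skipping it keeps the reading frame in transcripts where it is wholly coding. The SP100 exon holds from 0 to 75 coding bases, depending on the coding transcript.
SP100 exon chr2:231282306-231282380 (+): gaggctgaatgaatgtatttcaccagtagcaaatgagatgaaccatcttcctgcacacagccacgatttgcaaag
IFI27L1 exon chr14:94567085-94567117 (+): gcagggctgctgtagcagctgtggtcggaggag
The SP100 exon has 44% G and C bases and the IFI27L1 exon 66.7%.

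BTN3A2 and TNIP1 are shown with the called exon in which translation starts; capitals mark the start codon.
BTN3A2 exon chr6:26368411-26368495 (+): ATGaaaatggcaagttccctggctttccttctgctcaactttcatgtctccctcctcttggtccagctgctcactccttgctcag
TNIP1 exon chr5:150444521-150444692 (-), its last 136 bases: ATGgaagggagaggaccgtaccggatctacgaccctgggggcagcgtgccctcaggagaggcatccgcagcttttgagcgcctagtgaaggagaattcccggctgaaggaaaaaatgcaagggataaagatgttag
A transcript that skips either exon lacks this start codon.

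TLR4, the lipopolysaccharide receptor (ENSG00000136869, chromosome 9), had 2 listed exons. The 120-base exon at 120470477 to 120470596 had a difference of -0.267 in RS3 (FDR 0.0165) and 0.045 in RS2 (FDR 1) in the authors' deposited table. Inclusion was thus lower than in the comparator in RS3 and slightly higher in RS2, where the event was not called. The neighbouring 167-base exon at 120470841 to 120471007 had 0.182 in RS3 (FDR 0.868) and 0.072 in RS2 (FDR 1) in the authors' deposited table and was called in neither. In GENCODE the 120-base exon is in 1 of 4 coding transcripts (TLR4-202), where it lies upstream of the start codon; the 167-base exon is in 3 of 4 and is coding.

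TIRAP, which bridges TLR4 to MyD88 (ENSG00000150455, chromosome 11), had 5 listed exons in 7 rows of each table. The called exon is the 124-base one at 126160357 to 126160480. In the authors' deposited table its 2 RS3 rows were -0.331 (FDR 0.0155) and 0.02 (FDR 1), and its 2 RS2 rows were -0.082 and 0.02 (FDR 1 for both). The lower inclusion was therefore listed in 1 RS3 row of the exon and not in the other. A 169-base exon at 126159560 to 126159728 had RS3 rows of -0.359 (FDR 0.669) and 0.12 (FDR 1) in the authors' deposited table. These rows were of opposite sign, and neither was called. The smallest deposited p of TIRAP in RS2 was 0.0113, at a 145-base exon with -0.05 (FDR 0.777) in the authors' deposited table. All 3 coding transcripts of TIRAP in GENCODE hold the 124-base exon, and it lies upstream of the start codon in all of them.

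IKBKB encodes the kinase subunit IKK-beta, which phosphorylates IkappaB (ENSG00000104365, chromosome 8). One of its 10 RS3 events was called, the 118-base coding exon at 42147674 to 42147791. It had a difference of -0.392 in RS3 (FDR 0.0476) and -0.289 in RS2 (FDR 1, deposited p 0.0338) in the authors' deposited table. Inclusion was lower than the comparator in both libraries, and the call was in RS3 alone. Its RS3 FDR is the one nearest to the threshold among the called member events. The exon is in 5 of 7 coding transcripts in GENCODE, and its length is not a multiple of 3. The remaining 9 RS3 events of IKBKB ran from -0.175 to 0.056 in the authors' deposited table.

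TNIP1 encodes ABIN1, a ubiquitin-binding protein that restrains NF-kappaB together with A20 (ENSG00000145901, chromosome 5). Its called exon came in 2 forms that end at 150444688 and 150444692, 4 bases apart on the upstream side, and both start at 150444521. The forms overlap in 168 bases, so they are not separate measurements. In the authors' deposited table the 168-base form had -0.112 in RS3 (FDR 0.00693) and 0.015 in RS2 (FDR 1). The 172-base form had RS3 rows of -0.102 (FDR 0.00226) and 0.017 (FDR 1), and RS2 rows of 0.007 and -0.023 (FDR 1 for both), in the authors' deposited table. These were the smallest called differences among the members. The 172-base form is the one shown above and holds the start codon in all 10 coding transcripts that carry it, of 15; the 168-base form had no match in GENCODE. The uncalled RS3 events of TNIP1 lay between -0.019 and 0.029 in the authors' deposited table. In RS2 its largest difference was -0.075 (FDR 1), at a 100-base exon, and its smallest deposited p was 0.0146, at a 78-base exon with -0.02 (FDR 0.833), in the authors' deposited table.

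SHARPIN, a subunit of the linear ubiquitin ligase complex LUBAC that activates IKK (ENSG00000179526, chromosome 8), had a single RS3 event. Inclusion of its 125-base coding exon at 145153984 to 145154108 was higher by 0.138 in RS3 (FDR 2.63e-07) in the authors' deposited table. The RS2 difference of that exon was 0.029 (FDR 1) in the authors' deposited table. Both coding transcripts in GENCODE hold the exon, and its length is not a multiple of 3. A 109-base exon of SHARPIN was listed in RS2 only, at -0.006 (FDR 1) in the authors' deposited table.

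IRF7, the transcription factor that drives type I interferon genes (ENSG00000185507, chromosome 11), had 2 exons in 2 rows each. The 226-base coding exon at 614174 to 614399 had RS3 rows of 0.221 (FDR 0.00069) and 0.002 (FDR 1) in the authors' deposited table. Its RS2 rows were 0.145 (FDR 0.929) and -0.015 (FDR 1) in the authors' deposited table. Each table thus had a row above the comparator and another near 0, and the RS3 row alone was called. The 87-base exon beside it ran from -0.053 to -0.011 over its 4 rows in the authors' deposited table, all uncalled. The 226-base exon is in 6 of 8 coding transcripts in GENCODE and is not a multiple of 3.

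IFI16, a nuclear DNA sensor of the PYHIN family (ENSG00000163565, chromosome 1), had lower inclusion of the 2 identical 168-base exons in RS3. The first, at 159015087 to 159015254, had -0.218 in RS3 (FDR 0.0192) and 0.021 in RS2 (FDR 1) in the authors' deposited table. The second, at 159019222 to 159019389, had -0.14 in RS3 (FDR 0.00737) in the authors' deposited table. In RS2 the second exon had 2 rows in the authors' deposited table, 0.033 and -1, both with an FDR of 1; the row at -1 had a deposited p of 0.334.

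The identity of the 2 exons bears on these values: a read wholly inside one of them matches the other equally well. How such reads were counted was not stated in the sources used, so the 2 calls may share reads and are uncertain as separate events. In GENCODE, the coding transcripts IFI16-202 and IFI16-204 hold the first and not the second, IFI16-205 the second and not the first, and IFI16-201 and IFI16-203 hold both. The unlike 168-base exon at 158986323 was listed in RS2 only, at -0.001 in the authors' deposited table. The other RS3 events of IFI16, exons of 423 and 2046 bases, had -0.02 and 0.024 (FDR 1 for both) in the authors' deposited table.

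SP100, a constituent of PML nuclear bodies (ENSG00000067066, chromosome 2), had 1 called event among 6 in RS3. The 75-base exon at 231282306 to 231282380 had -0.183 in RS3 (FDR 0.000709) and -0.05 in RS2 (FDR 1) in the authors' deposited table. Inclusion was lower than in the comparator in both libraries, and called in RS3. The exon is in 5 of 11 coding transcripts in GENCODE. The other RS3 rows lay between -0.094 and 0.012 in the authors' deposited table, with the lowest at the 153-base exon that starts at 231325977.

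IFI27L1, a small relative of the interferon-induced mitochondrial protein IFI27 (ENSG00000165948, chromosome 14), had the most listed and the most called events of the members in RS3, 13 and 4. The 33-base exon shown above, at 94567085 to 94567117, had RS3 rows of -0.431 (FDR 2.73e-08), -0.118 (FDR 0.45) and 0.013 (FDR 1) in the authors' deposited table. Its RS2 rows were -0.048 and 0.01 (FDR 1 for both) in the authors' deposited table. The called row had the smallest FDR of all member events, and 9 of 10 coding transcripts in GENCODE hold the exon.

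The exon upstream of it in IFI27L1 came in 2 forms, of 187 and 184 bases, which start 3 bases apart and end together at 94564024. They overlap in 184 bases, so they are not separate measurements. The 187-base form had RS3 rows of -0.448 (FDR 0.00848) and 0.209 (FDR 0.103) in the authors' deposited table. The 184-base form had RS3 rows of -0.39 (FDR 0.0225) and 0.355 (FDR 0.0227) in the authors' deposited table, both called and of opposite sign. In RS2 each form had 1 row, -0.013 and 0.054 (FDR 1 for both), in the authors' deposited table. The RS3 rows of this exon thus had both signs, and no single direction holds for it. Neighbouring exons are not listed, so whether the sign goes with them was not tested. Both forms hold the start codon in GENCODE, with 25 coding bases.

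The last listed exon of IFI27L1 was not called. Its 246-base form had -0.273 in RS2 (FDR 1) and RS3 rows of -0.115 (FDR 0.917) and 0.02 (FDR 1) in the authors' deposited table. Its 162-base form stayed between -0.053 and 0.008 over both tables in the authors' deposited table. The smallest deposited p of IFI27L1 in RS2 was 0.0849, at a 56-base exon with -0.029 in the authors' deposited table.

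**Figure D2:**
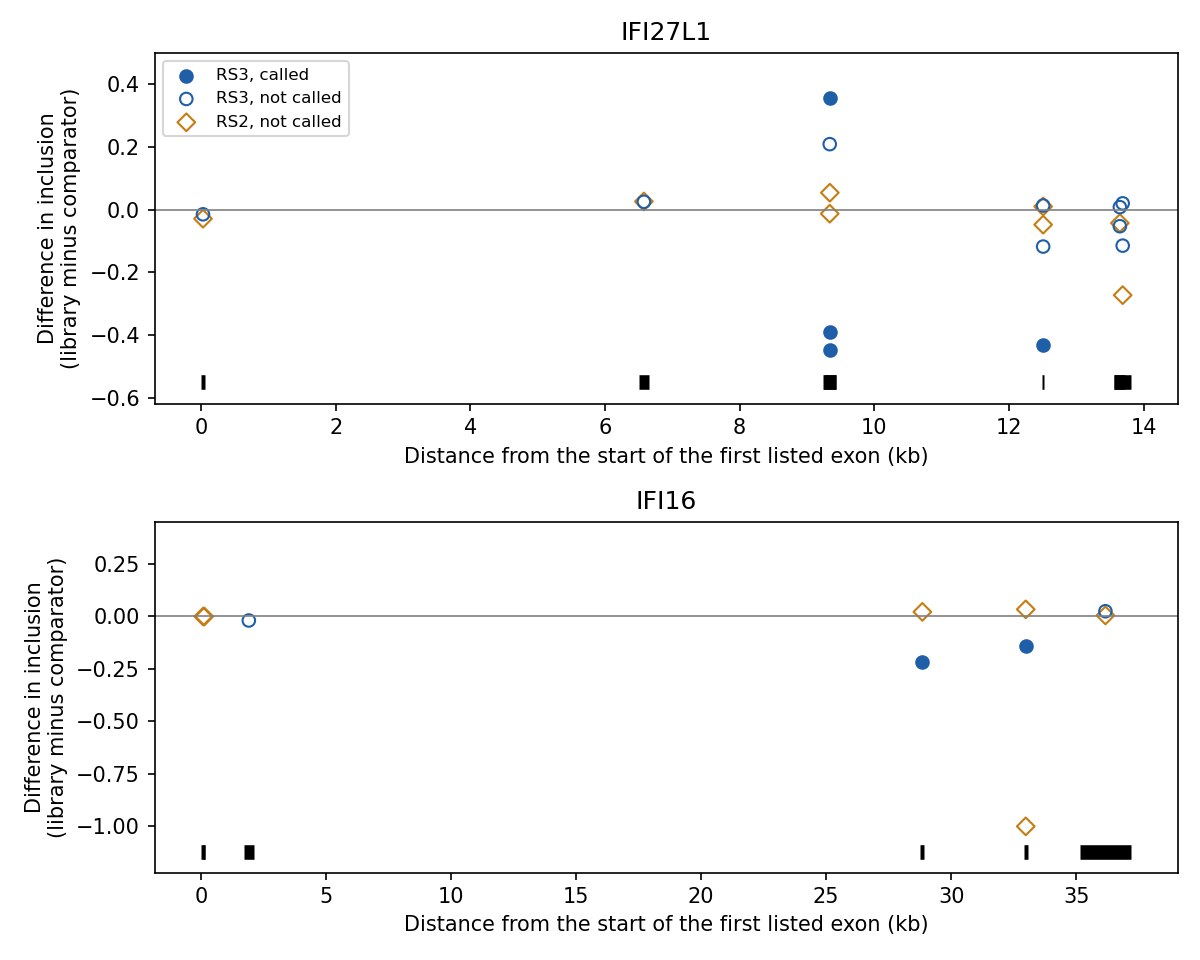
Difference in inclusion level (vertical axis, library minus comparator) along IFI27L1 and IFI16 in the authors' deposited table; each point is 1 row at the middle of its exon, with distance in kb from the first listed exon on the horizontal axis and exons drawn to scale as black bars. IFI27L1 has called RS3 rows on both sides of 0 at the exon of 187 or 184 bases, and in IFI16 both called rows are below 0.

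BTN3A2 belongs to the butyrophilins, surface proteins of the immunoglobulin superfamily whose BTN3A members take part in activation of gamma-delta T cells (ENSG00000186470, chromosome 6). Its called exon had 2 forms that end together at 26368495, of 90 bases from 26368406 and of 85 bases from 26368411. In the authors' deposited table the 90-base form had 0.353 in RS3 (FDR 0.000291) and 0.042 in RS2 (FDR 1). The 85-base form had 0.347 in RS3 (FDR 0.000685) and 0.042 in RS2 (FDR 1) in the authors' deposited table. The forms overlap in 85 bases, and how reads were shared between them was not stated in the sources used, so they are not separate measurements.

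The BTN3A2 exon also has a near copy. An exon of BTN3A3, a paralog, is alike in 84 of the 85 bases (98.8%). Reads within the exon could therefore come from BTN3A3 too, and the value is uncertain to that extent. Only paralog exons as long as a listed form were compared. That gave no value for the paralog BTN3A1, so whether it could share reads is unknown. The 201-base exon of BTN3A2 at 26373125 had 0.017 in RS3 and -0.116 in RS2 (FDR 1 for both) in the authors' deposited table. The authors' deposited table lists a 21-base exon in RS2 only, with a difference of -0.104 (FDR 1).

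The 15 called exons were then set side by side over both tables, which share the comparator library, so a deviation in that library would move RS2 and RS3 alike. All 15, with overlapping forms counted as separate exons, were listed in RS2 too. In the authors' deposited table the RS2 rows lay between -0.082 and 0.054 for all of them except IKBKB (-0.289), 1 of 2 IRF7 rows (0.145) and the IFI16 row at -1. Of the 15, 6 were listed in several RS3 rows, namely those of TIRAP, IRF7, the 172-base form of TNIP1 and 3 of IFI27L1. In each of these 6 exons at least 1 other RS3 row was near 0 or of opposite sign. The difference between RS3 and RS2 was not tested.

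**Figure D3:**
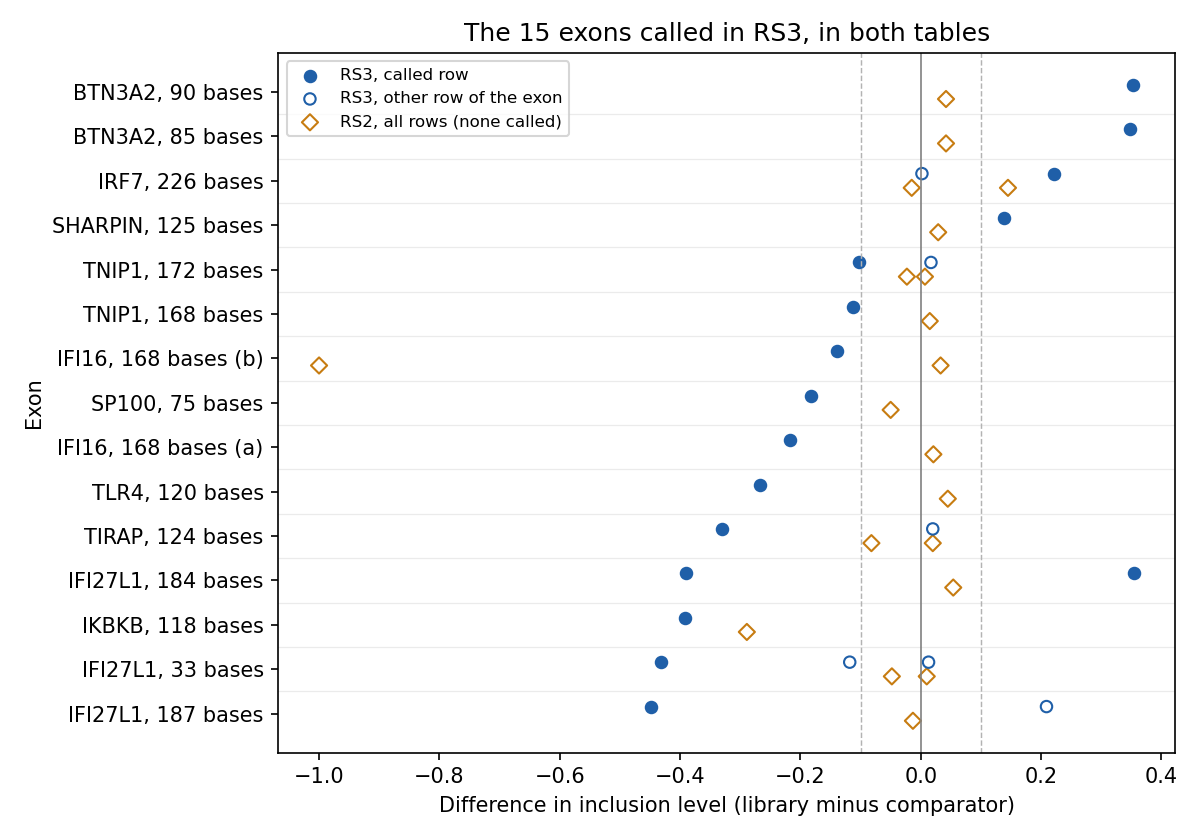
The 15 exons called in RS3 (vertical axis, gene and exon length) with the difference in inclusion level (horizontal axis, library minus comparator) of every row in the authors' deposited table, RS3 as circles, filled where called, and RS2 as diamonds; IFI16 (a) and (b) are the first and second of the identical exons. The RS2 diamonds lie within 0.1 of 0 except for IKBKB, 1 IRF7 row and 1 IFI16 row.

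The position of the exons in the coding sequence was not used to choose the members. Of the 47 member exons listed in RS3, 13 hold the start codon or lie upstream of it in the coding transcripts that carry them, and 7 of these were called, in TLR4, TIRAP, TNIP1, IFI27L1 and BTN3A2, with both forms of the IFI27L1 and of the BTN3A2 exon counted. Of 28 that code past the start codon in any coding transcript, 7 were called, in IKBKB, SHARPIN, IRF7, IFI16, SP100 and IFI27L1. The 5 found in no coding transcript had no call, and the remaining called exon is the unmatched TNIP1 form. The same shares were not computed over all genes, and the members were chosen for their calls, so these counts only describe where the called exons lie. Among the 7 called exons that code past the start codon, 4 had a length that is a multiple of 3. These 4 (the identical pair of IFI16, which may share reads, SP100 and IFI27L1) had lower inclusion. So had 313 of all 411 RS3 calls, which were not split by length. Of the 3 others, IRF7 and SHARPIN had higher and IKBKB lower inclusion. Over all positions, 7 called member exons were multiples of 3, 1 with higher inclusion (the 90-base BTN3A2 form) and 6 with lower. Of the 8 called exons of other lengths, 4 had a higher and 5 a lower call, with the 184-base IFI27L1 form in both counts. Member exons in RS3 had a median length of 126 bases against 120 for all genes, and 55.3% of the lengths were multiples of 3 against 41.4%; called member exons had a median of 125 bases.

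The rest of the pathway was described from 6 lists with 236 genes in all: Toll-like receptors and adaptors, NF-kappaB and IKK regulation, interferon receptors with JAK-STAT and IRF genes, interferon-induced genes, cytosolic sensors, and butyrophilins with B7 relatives. With the members, 11 of 152 listed genes (7.24%) had a called event in RS3, and without them 1 of 142 (0.704%), beside 3.05% of all genes. The members were chosen for their calls, so the first share is raised and the second lowered by that choice, and neither can be read against the share of all genes. In RS2, 1 of 150 listed genes (0.667%) had a called event, which is no member, beside 0.238% of all genes. Counting the members, called genes in RS3 numbered 2 of 20 for Toll-like receptors, 3 of 40 for NF-kappaB, 1 of 20 for interferon receptors and IRF genes, 3 of 42 for interferon-induced genes, 1 of 22 for sensors and 1 of 8 for butyrophilins. Almost all called genes of these lists are thus the members themselves, which were chosen for their calls. The median difference over the 578 RS3 events of the other list genes was -0.001, equal to that of all genes, in the authors' deposited table.

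The 2 called list genes that are no members are both from the list of cytosolic sensors. DHX9, an RNA helicase that also senses nucleic acids, had -0.408 in RS3 (FDR 0.000571) and -0.282 in RS2 (FDR 0.798) at a 137-base exon in the authors' deposited table (chromosome 1, 182824712 to 182824848). PYCARD encodes ASC, the adaptor of inflammasomes, and its 57-base exon (chromosome 16, 31213468 to 31213524) had -0.112 in RS2 (FDR 0.0218) and -0.082 in RS3 (FDR 0.0726) in the authors' deposited table. Both exons were listed in a single row of each table and were lower than the comparator in both, with the call in RS3 for DHX9 and in RS2 for PYCARD.

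**Figure D4:**
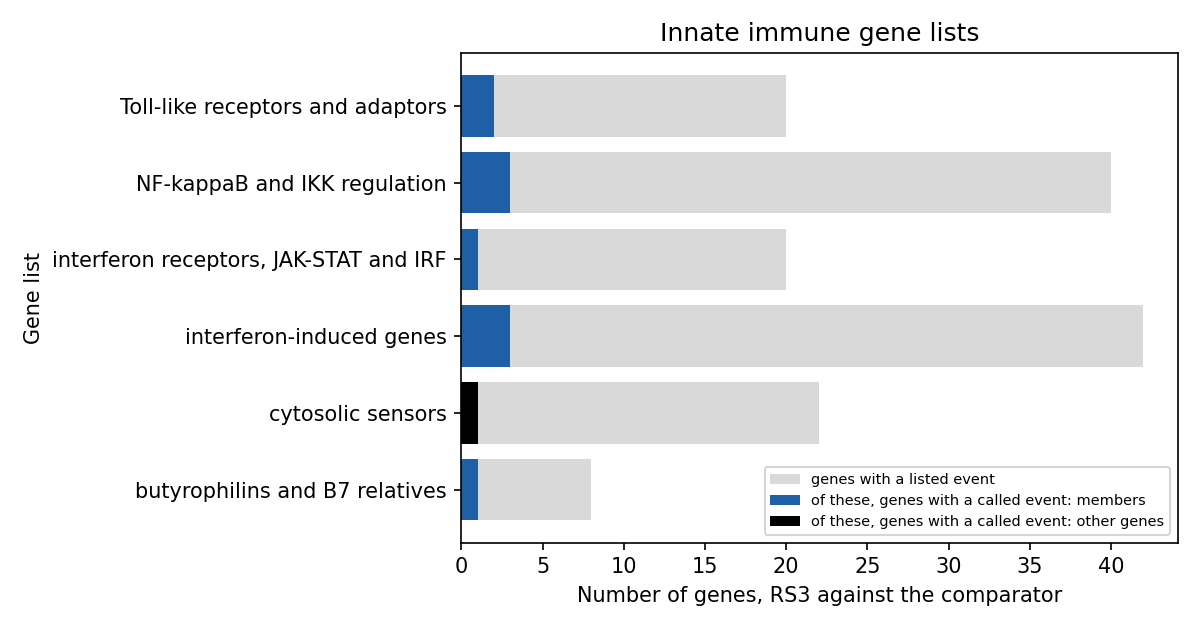
Number of genes (horizontal axis) of each innate immune list with a listed event in RS3 (grey) and with a called event (blue for the 10 members, black for other genes). Outside the members, the cytosolic sensor list has 1 called gene, DHX9, and the other 5 lists have 0.

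The tables hold no RNA levels, so they cannot show whether any of these genes was expressed more or less, and they do not check either knockdown. Of 16 fibroblast markers, 15 had a listed event in each table, and of 16 leukocyte markers 1 (CSF1R) had one, although a listed event is not a level. Among the fibroblast markers, FN1 and PRRX1 had a called event in RS3 and FN1 in RS2, all with lower inclusion, which is 13.3% and 6.67% of the 15 genes beside 3.05% and 0.238% of all genes. In bulk RNA, a change in the cells that make up a culture and a change of splicing within cells cannot be told apart.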

How the data were processed

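RNA of 3 libraries was extracted with Trizol, selected for mRNA and prepared with a TruSeq kit, per the labels' protocols. The submitters' processing notes name hg19, STAR and FastQC; the event caller and read counts were not stated in the sources used. For each skipped exon the authors deposited the inclusion difference with its p-value and FDR, per the file headers. The difference was read as RS2 or RS3 minus the comparator because the tables name RS2 and RS3 first; no value used here tests that reading. The 4 columns of inclusion level per library match no label and were not used.

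Scripts in Python 3.11.15 with pandas 2.3.3 selected rows by gene symbol, counted calls (FDR under 0.05, absolute difference at least 0.1) and recomputed them under 6 alternatives. The code of the call rule was run on simulated events made to pass it. That does not show how the rule behaves on these libraries. All rows of the 10 members are in the plot of every listed event of these genes, but the text does not give each of them. Each member's called rows and its rows with the largest difference and the smallest p are given, by difference and mostly with FDR. Some of the other rows are given only as a range, and some uncalled rows of either table have no value in the text. Every list gene outside the members with a call is named. The members and lists were chosen with earlier results of these data known. GENCODE 29 (GRCh38) served for exon structure and sequence, not for coordinates. Depth per library is unknown, so no interval is given.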

Additional observations from a re-analysis of the deposited data

How the results depend on the processing

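The 16 called member events in RS3 (26.7% of 60) became 10 (16.7%) with an FDR under 0.01. Over exons listed in a single row they were 9 of 35 (25.7%), and with 1 row per exon 15 of 47 (31.9%). They were 11 (18.3%) with a minimum difference of 0.2. With no minimum difference, or with Benjamini-Hochberg values recomputed over each whole table, they were 16. The RS2 count of 0 was 0 under all 6 alternatives. The median member difference in RS2 (-0.007) was -0.006 with 1 row per exon and -0.0035 over single-row exons; in RS3 (-0.01) it was -0.019 and 0.002. List genes with a call in RS2 went from 1 to 0 with an FDR under 0.01 or a minimum difference of 0.2, and those in RS3 from 11 to 8 at the lowest. Over all genes, the 29 RS2 calls (0.0712% of the rows used) became 19 (0.0467%, FDR under 0.01) and 11 (0.027%, difference of at least 0.2). They were 14 (0.0493%) over single-row exons and 67 (0.165%) with no minimum difference. In the same order, the 411 RS3 calls (0.967%) became 261 (0.614%), 189 (0.445%), 228 (0.779%) and 699 (1.64%). With 1 row per exon there were 27 RS2 calls (0.08%) and 392 RS3 calls (1.12%). The alternatives with 1 row per exon and with single-row exons use fewer rows; the others change the threshold or the adjustment over the same rows. No paired analysis was possible because each group has 1 library. No library could be left out for the same reason.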
